A study of Mus musculus with 34 samples.

Results

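Alas2, Alas1, Hemgn, Klf1, Slc4a1 and Epor are genes best known from the making of red blood cells, and here they were followed in mouse testis material, above all in staged seminiferous tubules. The 6 genes were picked by name, with their tubule signals already known, from 33370 gene names measured on the arrays, and all 6 had a probe. Where a gene had several probes, the one with the highest signal was used. The tubule values of the 6 genes are therefore a description with no test. They were tested only in the testis and Sertoli cell comparisons, and the transcription factor gene Gata1, set beside them throughout, was tested everywhere. The genes and gene lists were chosen with earlier results of these data known, so the p-values given were not blind to the choice.

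The study asked how gene expression in Sertoli cells, the somatic nurse cells of the tubule, depends on the stage of the tubule and on retinoic acid (RA) signalling. All mice were C57BL6/j, aged 6 to 8 weeks. RNA from 17 groups of 2 samples was hybridised to 34 single-colour Agilent arrays. The groups were whole testes; Sertoli cells sorted from wild-type (WT) mice; Sertoli cells sorted from Nanos3 knockout (N3KO) mice; cultured primary Sertoli cells given vehicle; the same cells given RA, labelled as 1 mM for 24 h; and tubules in 4 stage groups (I-III, IV-VI, then VII-VIII, with IX-XII the last) in each of 3 arms. Some sample titles write VI-VIII where the source names write VII-VIII. The arms were untreated tubules, tubules from testes injected with a lentivirus carrying the fluorescent protein Venus as control, and tubules from testes injected with a lentivirus carrying a dominant negative RA receptor alpha (dnRARa), with 5 days between injection and dissection. The labels name no marker for the cell sort, no promoter for the viral genes, and no cell type that the virus reached, and they do not say how many animals stand behind a sample. The p-values measure only the spread between samples described as biological duplicates.

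Levels are log2 signals relative to the 75th percentile of the same array, so that 0 lies at that percentile and a step of 1 is a doubling. A level compares 1 gene between samples and not 1 gene with another. Spots well above background made up 54.89 to 74.42% of an array, and the r between replicates was 0.9726 to 0.9955. The N3KO pair agreed least: 3.05% of its genes differed by more than 2 log2 units between both arrays, against 0.0362 to 0.791% in the other groups. Slides and scan days, as numbered from the file headers, followed the design. The 4 stage groups of each virus arm lay together on 1 slide per replicate, and no slide held both virus arms. Untreated stages I-III, IV-VI and the later stages lay on 3 slides of 1 scan day. N3KO and WT Sertoli cells lay on different slides. Cultured cells, untreated tubules and virus-injected tubules lay on different scan days. Whole testes and sorted cells shared another scan day.

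Heme, the iron-carrying pigment of hemoglobin and of many enzymes, is made by a chain of enzymes whose entry step, delta-aminolevulinate synthase, sets the pace. Alas2 encodes the form known from red cell precursors, and Alas1 encodes the form found in most tissues. Epor encodes the erythropoietin receptor, Klf1 and Hemgn encode nuclear proteins of red cell development, and Slc4a1 encodes band 3, the anion exchanger of the red cell membrane. Gata1 encodes a zinc finger factor that drives many of these genes in red cell precursors, and in the testis it is known as a stage-dependent gene of Sertoli cells.

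The stretches of 250 bases before the transcription starts of Alas2, Epor and Gata1 are shown because Alas2 and Epor moved together across the tubule stages while Gata1 moved the other way. They are RefSeq sequences of build GRCm38.p6, at chrX:150547167-150547416 (plus strand) for Alas2, chr9:21963577-21963826 (minus strand) for Epor and chrX:7967911-7968160 (minus strand) for Gata1. Capitals mark GATA letters, searched on both strands in the spelling AGATAA, in the spelling AGATAG that ends otherwise, and with a leading T in the spelling TGATAA or in the spelling TGATAG.
Alas2: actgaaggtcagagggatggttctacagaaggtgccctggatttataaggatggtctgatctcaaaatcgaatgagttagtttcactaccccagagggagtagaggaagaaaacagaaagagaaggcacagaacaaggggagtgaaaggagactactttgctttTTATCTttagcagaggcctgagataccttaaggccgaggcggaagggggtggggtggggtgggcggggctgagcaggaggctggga
Epor: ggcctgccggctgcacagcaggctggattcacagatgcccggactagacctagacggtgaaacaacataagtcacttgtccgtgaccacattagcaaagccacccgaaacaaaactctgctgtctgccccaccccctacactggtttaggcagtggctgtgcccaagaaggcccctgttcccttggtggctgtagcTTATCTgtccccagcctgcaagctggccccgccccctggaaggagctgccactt
Gata1: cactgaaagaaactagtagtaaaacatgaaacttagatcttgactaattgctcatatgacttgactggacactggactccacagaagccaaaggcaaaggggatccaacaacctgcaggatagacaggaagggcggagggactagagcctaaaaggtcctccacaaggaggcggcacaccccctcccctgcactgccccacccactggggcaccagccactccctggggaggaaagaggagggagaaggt
The Alas2 and Epor stretches each held AGATAA once, read on the minus strand relative to the gene, 86 and 54 bases before the start. Hemgn and Klf1 held TGATAA once each. The Gata1 and Alas1 stretches held none of the 4 spellings. Of 27025 mouse promoters of the same length 27.1% held at least 1 of them. CACCC letters of the kind bound by Klf1 (in the spelling CCACACCC, in the spelling CCACCCC or in the spelling CCGCACCC, on both strands) occurred 3 times for Alas2 and once for Epor, and in 17.1% of all promoters. The core letters of RA receptor sites (in the spelling AGGTCA or in the spelling GGGTCA, on both strands) occurred once, for Alas2, 245 bases before the start, and in 23.5% of all promoters. A match of letters is a description of the sequence, and binding was not measured here.

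Alas2 had the widest stage swing of the set within each arm, with a range of stage means of 6.13 log2 units in Venus and 6.33 in dnRARa tubules, and its low point was stages VII-VIII in every arm. In untreated tubules Alas2 stood at 1.74 and 1.9 in stages I-III, at 1.12 and 1.21 in IV-VI, at -5.32 and -5.37 in VII-VIII and at 0.73 and 1.1 in IX-XII. Both untreated VII-VIII arrays were not well above background, so the level there is a bound: it was at least 76.1-fold lower than in IV-VI and at least 64-fold lower than in IX-XII. In Venus tubules the arrays read 2.68 and 2.92, 2.31 and 2.33, -3.32 and -3.34, and 0.1 and 0.23 over the same 4 stage groups, and the VII-VIII arrays were well above background. In dnRARa tubules they read 2.84 and 2.49, 1.53 and 0.78, -3.33 and -3.99, and 2.08 and 1.91. No stage group overlapped its neighbour in the order of levels within any arm. The order was I-III, IV-VI, IX-XII, VII-VIII in untreated and Venus tubules, whereas in dnRARa tubules IX-XII ranked above IV-VI.

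From IV-VI to VII-VIII Alas2 differed by -5.65 in Venus and -4.81 in dnRARa tubules, and from VII-VIII to IX-XII by 3.5 and 5.65, as log2 differences (SE 0.23 each). The steps within the Venus and dnRARa arms compare arrays of the same slides. Untreated IV-VI and VII-VIII lay on different slides, so stage and slide cannot be told apart in that step for any gene. In untreated tubules both differences are the bounds given above, which hold for the background correction of the files. With normexp correction and an offset of 50, which lifts dim signals, they were -3.00 and 2.77. Since each array holds RNA of whole tubule pieces, fewer cells of a type and less RNA per cell cannot be told apart in any of these values.

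**Figure D1:**
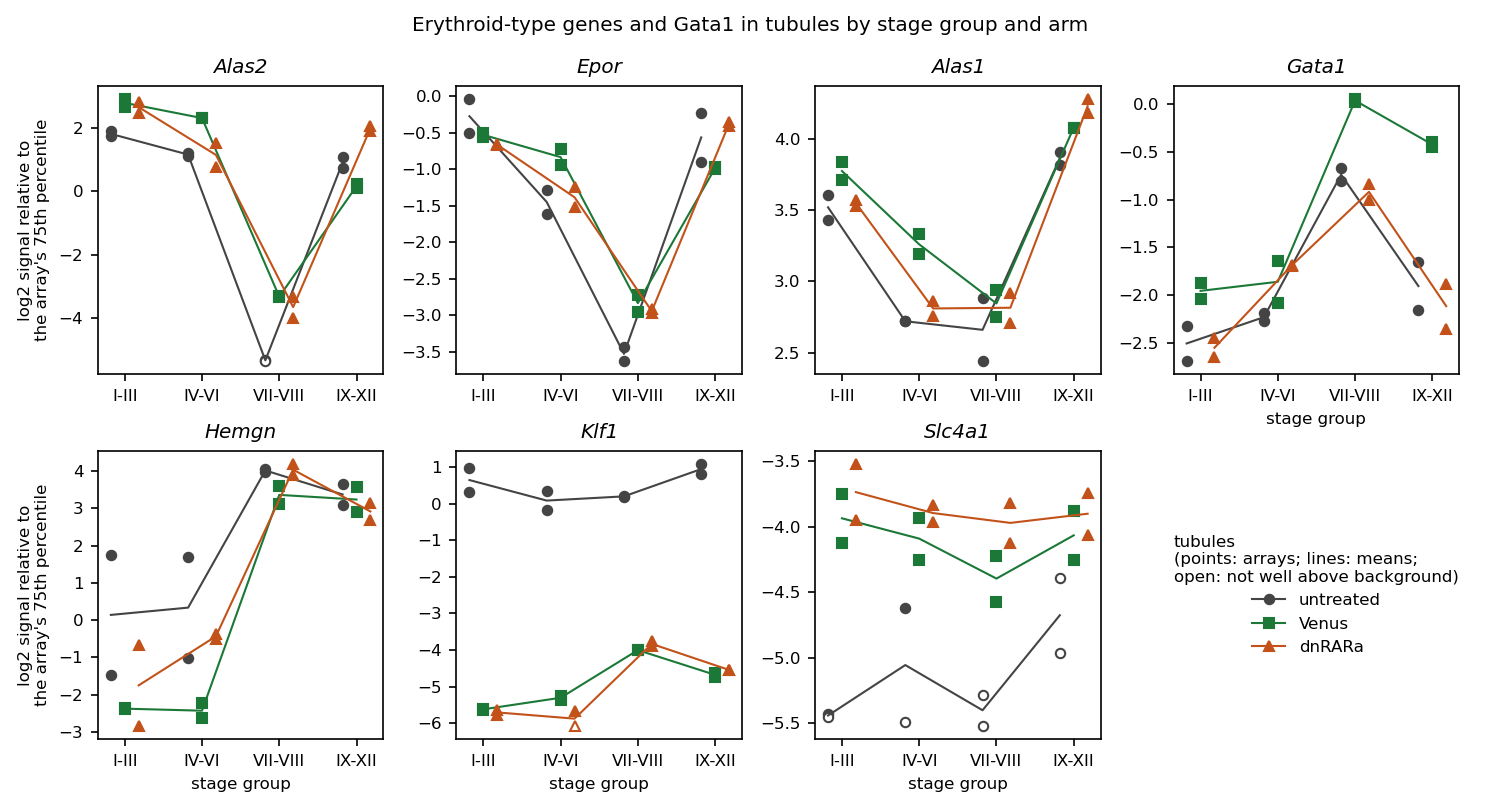
Log2 signal relative to the array's 75th percentile for the 6 erythroid-type genes and Gata1 in 4 stage groups of untreated, Venus and dnRARa tubules (points are arrays, lines join means of 2 arrays, open points were not well above background). Alas2 and Epor were lowest at VII-VIII in every arm, Gata1 was highest there, and Klf1 lay between -0.18 and 1.08 in untreated tubules but between -6.07 and -3.76 in both virus arms.

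Epor, the receptor gene, shared the low point of Alas2 at a smaller scale. Its untreated arrays read -0.51 and -0.04 in I-III, -1.61 and -1.29 in IV-VI, -3.43 and -3.63 in VII-VIII and -0.9 and -0.23 in IX-XII. All 24 tubule arrays were well above background, so the VII-VIII minimum was measured and not a bound. In Venus tubules Epor stood at -0.56 and -0.5, -0.73 and -0.94, -2.95 and -2.72, and -1 and -0.97. In dnRARa tubules it stood at -0.67 and -0.66, -1.25 and -1.52, -2.92 and -2.97, and -0.41 and -0.35. The VII-VIII arrays lay below every other tubule array in all 3 arms, while stages I-III and IX-XII overlapped in untreated tubules. From IV-VI to VII-VIII Epor differed by -2.08, -2.0 and -1.56 in untreated, Venus and dnRARa tubules (SE 0.2 each), and the untreated value was -0.79 with normexp background correction.

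Alas1 differed from Alas2 both in size and in shape. Its 24 tubule arrays ran from 2.44 to 4.28 with a median of 3.38, and its stage means spanned 1.2, 1.24 and 1.42 log2 units in untreated, Venus and dnRARa tubules. Stages IX-XII were highest in every arm, with 3.91 and 3.82 in untreated, 4.08 and 4.08 in Venus and 4.18 and 4.28 in dnRARa tubules. From IV-VI to VII-VIII it differed by -0.06 (SE 0.13), -0.42 (SE 0.14) and 0.00 (SE 0.14), where Alas2 fell to its minimum. In untreated and dnRARa tubules the arrays of IV-VI and VII-VIII overlapped. The other probe for Alas1 read lower and ran through the stages in the same way.

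The nuclear factor genes Hemgn and Klf1 ran differently from Alas2 and from each other. Hemgn was high in VII-VIII and IX-XII and low in the early stages: its Venus arrays read -2.39 and -2.36 in I-III, -2.23 and -2.63 in IV-VI, 3.61 and 3.11 in VII-VIII and 3.58 and 2.89 in IX-XII. The dnRARa arrays read -0.66 and -2.84, -0.37 and -0.5, 3.88 and 4.19, and 3.15 and 2.68. The late stages lay above the early stages without overlap in both virus arms. In untreated tubules the early arrays disagreed, with 1.76 and -1.48 in I-III and 1.68 and -1.01 in IV-VI, against 4.05 and 3.98 in VII-VIII and 3.64 and 3.1 in IX-XII, and early and late stages did not overlap there either. A second probe for Hemgn ran the same way, with Venus means of -5.39, -5.36, 0.58 and 0.62. The dimmest probe was well above background at VII-VIII (4 of 6 tubule arrays) and on no array of the other stages, so it did not show the high IX-XII level. By the brightest probe Hemgn stood near its maximum in the stages where Alas2 stood at its minimum. Its step from IV-VI to VII-VIII was 3.69 in untreated (SE 0.91), 5.79 in Venus (SE 0.92) and 4.47 in dnRARa tubules (SE 0.91).

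Klf1 separated the arms more than the stages. Its untreated arrays read 0.97 and 0.31, 0.34 and -0.18, 0.18 and 0.21, and 1.08 and 0.8 from I-III to IX-XII. The Venus arrays read -5.6 and -5.63, -5.36 and -5.24, -3.99 and -4.01, and -4.72 and -4.63. The dnRARa arrays read -5.63 and -5.77, -5.67 and -6.07, -3.9 and -3.76, and -4.53 and -4.55. Every virus-injected array lay below every untreated array, and 1 of them was not well above background. Over the 4 stage groups Venus minus untreated was -5.36 (SE 0.1), and it was -3.99 with normexp background correction. Of 23740 genes tested in that comparison 11 were as low or lower, and 50 were at least 4 log2 units lower while 43 were at least 4 higher. Venus and untreated tubules were scanned on different days and with different array design files, so virus, day and design file cannot be told apart. Over all genes the median there went from 0.058 to -0.323 with normexp. Within the virus arms Klf1 was highest in VII-VIII, by 1.3 over IV-VI in Venus and by 2.04 in dnRARa tubules (SE 0.2 each). The smallest values over the alternatives were 0.51 and 0.91, and the array not well above background (-6.07) was a dnRARa IV-VI array. With normexp the Venus step from VII-VIII to IX-XII turned from -0.67 to 0.18, so VII-VIII was not highest there.

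Slc4a1, the membrane gene, was dim and nearly flat across stages. It was well above background on 18 of 24 tubule arrays, and the other 6 were untreated arrays. The Venus arrays read -4.12 and -3.75, -4.25 and -3.93, -4.57 and -4.22, and -4.25 and -3.88 from I-III to IX-XII, and all neighbouring stage groups overlapped. The dnRARa arrays lay between -4.12 and -3.52. Venus minus untreated was 1.02 (SE 0.14), and this difference turned to -0.12 with normexp background correction.

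Gata1 ran against Alas2 and Epor over the stages. Its untreated arrays read -2.32 and -2.69 in I-III, -2.19 and -2.27 in IV-VI, -0.81 and -0.67 in VII-VIII and -1.65 and -2.16 in IX-XII, as averages of 10 spots of 1 probe. The Venus arrays read -2.04 and -1.87, -2.08 and -1.64, 0.02 and 0.05, and -0.45 and -0.4. The dnRARa arrays read -2.65 and -2.45, -1.68 and -1.7, -1 and -0.84, and -2.35 and -1.88. VII-VIII was the highest stage group without overlap in each arm. From IV-VI to VII-VIII Gata1 rose by 1.49 in untreated tubules (SE 0.19, adjusted p = 2.9e-05, limma with Benjamini-Hochberg adjustment over all genes), by 1.9 in Venus tubules (SE 0.2, adjusted p = 7.05e-06) and by 0.77 in dnRARa tubules (SE 0.2, adjusted p = 0.00749). In the same step 42.4%, 33% and 31.4% of all genes tested passed an adjusted p of 0.05 in the 3 arms. The untreated step lies between slides, so stage and slide cannot be told apart in it.

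Across the 12 tubule group means Alas2 and Gata1 had r = -0.79 and rho = -0.75, and Alas2 and Epor had r = 0.95 and rho = 0.75. These are descriptions over means that share arms, slides and depth of signal, with no p, and they take untreated VII-VIII Alas2 at its value near background. The VII-VIII groups stood apart, and over the other 9 group means the values were -0.68 for Gata1 and 0.46 for Epor. Alas2 and Hemgn had r = -0.75 with and without VII-VIII, and Alas2 and Alas1 had r = 0.59 with VII-VIII and 0.01 without.

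**Figure D2:**
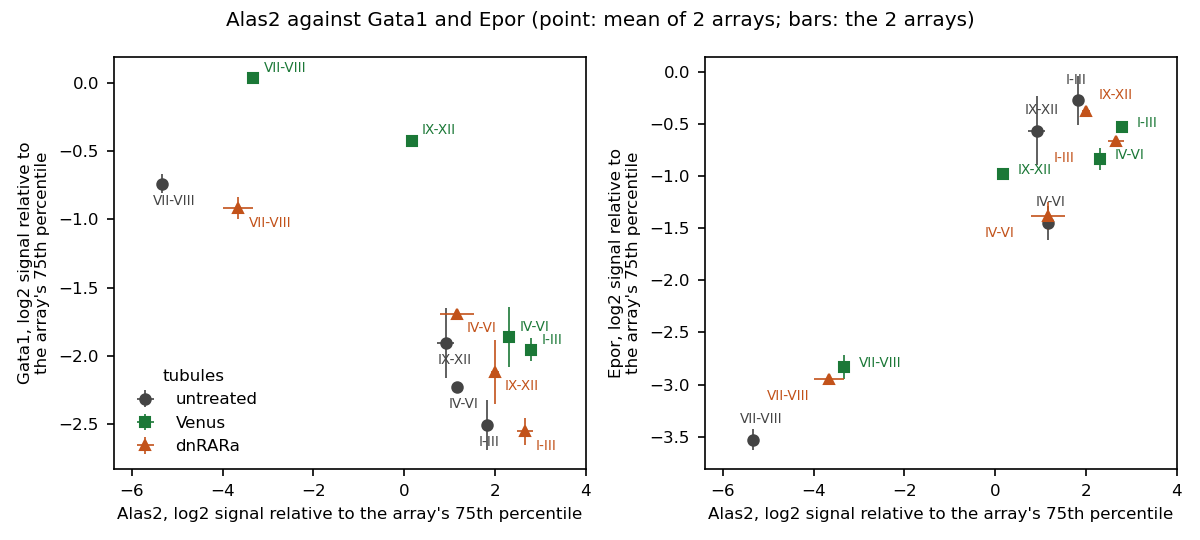
Means of 2 arrays of Alas2 (horizontal) against Gata1 (left) and Epor (right) in the 12 tubule groups, with bars to both arrays, all as log2 signal relative to the array's 75th percentile. The 3 VII-VIII groups sit at the lowest Alas2 levels, with the highest Gata1 and the lowest Epor level of each arm.

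The virus arms differed for Alas2 in opposite ways by stage, and Gata1 differed the other way in IX-XII. Each virus arm had slides of its own, so virus and slide cannot be told apart in any difference between these arms. In IX-XII Alas2 stood at 2.08 and 1.91 in dnRARa against 0.1 and 0.23 in Venus tubules, a difference of 1.83 (SE 0.23). In IV-VI it stood at 1.53 and 0.78 against 2.31 and 2.33, a difference of -1.17 (SE 0.23), which was -0.78 within scan day 2 and -1.55 within scan day 3. In both stage groups the 2 arms did not overlap. In I-III and VII-VIII the differences were -0.13 and -0.33 (SE 0.23 each), and over the 4 stage groups the mean difference was 0.05 (SE 0.12). Epor had the same signs, with 0.61 in IX-XII and -0.55 in IV-VI (SE 0.2 each) and no overlap of arms in either. Alas1 differed by 0.15 in IX-XII and -0.45 in IV-VI (SE 0.14 each). Hemgn differed by 2.0 in IV-VI and -0.32 in IX-XII (SE 0.92 each), and Klf1 by -0.57 and 0.14 (SE 0.2 each), where the IX-XII value turned to -0.52 with normexp. Slc4a1 differed by 0.17 to 0.42 over the 4 stage groups (SE 0.28 each), and its IX-XII value turned to -0.45 with normexp.

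Gata1 fell by 1.69 in dnRARa against Venus tubules at IX-XII (SE 0.2, adjusted p = 0.000178), where 4.67% of all genes tested passed. At VII-VIII the difference was -0.96 (SE 0.2, adjusted p = 0.0234, 1.54% of genes passing). That call was lost when any 1 of the 4 arrays was left out, with adjusted p-values of 0.0817 to 0.157, and with normexp background correction. In I-III the value was -0.59 (adjusted p = 0.437, 0.00896% of genes passing) and in IV-VI 0.17 (adjusted p = 0.716, 3.35% passing). Over the 4 stage groups the difference was -0.77 (SE 0.1, adjusted p = 0.000194), with 12.2% of genes passing. The test of the late against the early stages between arms gave -1.11 for Gata1 (SE 0.2, adjusted p = 0.0195, 0.995% of genes passing), and the adjusted p ran up to 0.0606 when single arrays were left out. The same contrast was 1.4 for Alas2 (SE 0.23), 0.59 for Epor (SE 0.2) and 0.39 for Alas1 (SE 0.14), given with no test. Both comparisons share the Venus arrays, and virus and slide cannot be told apart in them.

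**Figure D3:**
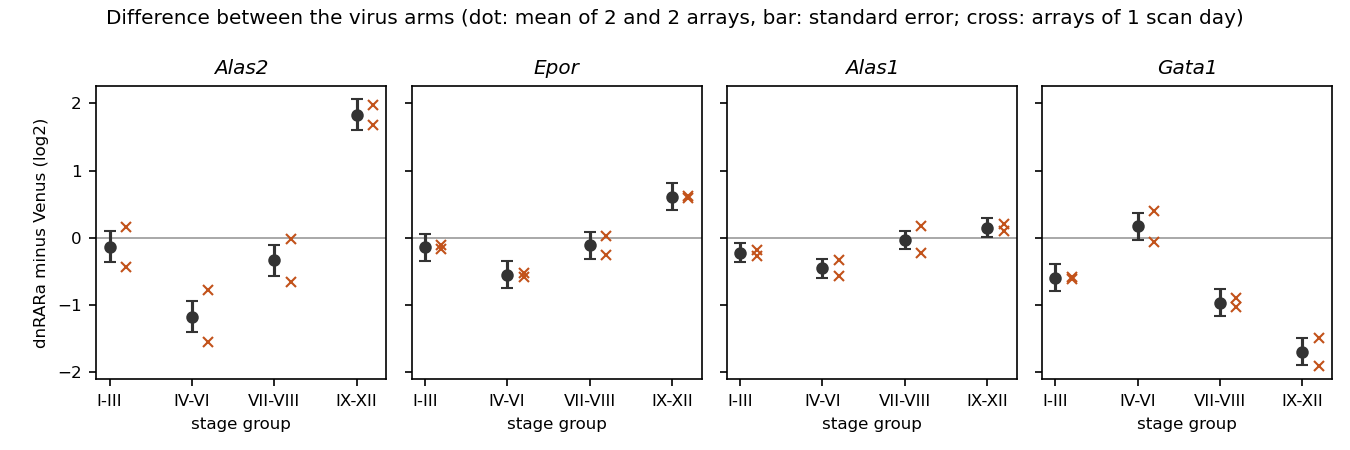
Log2 difference of dnRARa minus Venus tubules for Alas2, Epor, Alas1 and Gata1 by stage group (dots with bars are means of 2 and 2 arrays with the standard error, crosses are pairs of arrays of the same scan day). Alas2 and Epor lay above 0 in IX-XII and below 0 in IV-VI on both days, and Gata1 lay lowest in IX-XII.

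Other cell markers moved with part of these differences. In IV-VI, 3 of 6 spermatid markers fell in dnRARa against Venus tubules, where 3.35% of all genes tested passed in either direction. Tnp2 stood at -2.6 (limma, adjusted p = 0.00243), Tnp1 at -1.57 (adjusted p = 0.0122) and Prm1 at -1.49 (adjusted p = 0.00666). All 3 encode proteins that pack the chromatin of late spermatids. The summed signal of the 6 spermatid markers there, in units of the array's 75th percentile, was 518 and 530 against 752 and 914. Far fewer genes passed at IV-VI with normexp or with only the arrays compared. In IX-XII no spermatid marker passed, by limma after adjustment, where 4.67% of all genes passed, and the sums were 953 and 1360 against 1050 and 953. Piwil1, a spermatocyte marker, rose by 0.7 (adjusted p = 0.0432) and Inhbb, a Sertoli marker, fell by 1.28 (adjusted p = 0.0356) in IV-VI. Myh11, of smooth muscle and peritubular myoid cells, fell by 0.73 in IV-VI (adjusted p = 0.0252) and by 0.71 in IX-XII (adjusted p = 0.0189). The Sertoli marker Rhox5 rose by 1.53 in IX-XII (adjusted p = 0.000106), where the spermatocyte marker Sycp3 rose by 0.74 (adjusted p = 0.0312) and the spermatogonia marker Uchl1 fell by 0.85 (adjusted p = 0.0138). The part of these cells in the Alas2 and Epor differences was not tested.

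Between testes and Sertoli cell preparations Alas1 had its higher mean in the sorted WT cells when set against whole testes, and the other 5 genes had lower means in those cells. Alas1 read 3.74 and 3.79 in testes, 6.28 and 6.84 in sorted WT cells, 6.3 and 5.52 in N3KO cells, 2.99 and 3.1 in vehicle cultures and 3.45 and 3.39 in RA cultures. Alas2 read 1.32 and 1.23, -0.44 and -0.54, -0.38 and -3.32, -1.25 and -1.23, and -1.55 and -1.65 in the same order. The lowest Alas2 array was the second N3KO sample, which lay 2.94 below its replicate. Epor also split in N3KO cells, at -2.75 and 1.78, against -1.22 and -1.11 in testes, -2.16 and -1.61 in WT cells, and -3.47 to -3.15 in the 4 cultures. Klf1 read 0.84 and 0.79 in testes, -1.6 and -1.97 in WT cells, -3.76 and -4.23 in N3KO cells, and -4.42 to -4.2 in the cultures. Hemgn read 3.61 and 3.54 in testes and -0.46 and -1.55 in WT cells, and was not well above background on the 6 N3KO and culture arrays. Slc4a1 lay between -6.95 and -4.26 on all 10 arrays.

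Sorted WT Sertoli cells differed from whole testes in 4 of the 6 genes, against 79.2% of all genes tested. Alas1 rose by 2.79 (SE 0.28, adjusted p = 7.47e-05, limma). Hemgn fell by 4.58 (SE 0.34, adjusted p = 1.87e-05) and Klf1 by 2.6 (SE 0.19, adjusted p = 1.65e-05). Slc4a1 fell by 0.72 (SE 0.23, adjusted p = 0.0257), but did not pass with normexp (-0.08, adjusted p = 0.865). Alas2 differed by -1.76 (SE 0.8, adjusted p = 0.079); its adjusted p was 0.0421 with scaling on the array median and 0.000307 when only the 4 arrays compared were fitted. Epor differed by -0.72 (SE 1.24, adjusted p = 0.608), and it passed under at least 1 alternative. The spread for Alas2 and Epor in this model includes the split N3KO pair. Gata1 rose by 0.79 (SE 0.2, adjusted p = 0.00794). The sorted cells also held the Leydig marker Lhcgr at least 41.7-fold above the testes (adjusted p = 3.1e-06), and their endothelial markers summed to 26.6 and 38.7 against 3.86 in both testis samples. Germ cell markers went the other way. Spermatocyte markers summed to 14 to 16.5 in sorted WT cells against 226 to 237 in testes, and spermatid markers to 432 to 685 against 1990 to 2170. The part of these cells in the differences of the 6 genes and Gata1 was not tested.

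N3KO against WT Sertoli cells differed in 3 of the 6 genes, against 48.8% of all genes tested, and all 3 were lower, as were 22.7% of all genes. Higher calls made up 53.6% of the calls, and 76.9% with median scaling. Hemgn was at least 24.3-fold lower (adjusted p = 5.29e-06), Klf1 fell by 2.21 (SE 0.19, adjusted p = 8.47e-05), and Slc4a1 was at least 1.32-fold lower (adjusted p = 0.00111). With normexp, which lifts dim signals, the log2 differences shrank to -1.42 for Hemgn (adjusted p = 0.0377) and -0.89 for Klf1 (adjusted p = 0.0402), so the Hemgn bound holds only for the background correction of the files. Slc4a1 did not pass with normexp (-0.49, adjusted p = 0.323) or quantile normalization (-0.56, adjusted p = 0.113). Alas2 differed by -1.36 (SE 0.8, adjusted p = 0.201), which was 0.10 without the second N3KO sample and -2.83 without the first. Epor differed by 1.4 (SE 1.24, adjusted p = 0.383), which turned to -0.87 without the second N3KO sample. Gata1 rose by 0.73 (SE 0.2, adjusted p = 0.0198), but did not pass without WT replicate 1 or N3KO replicate 2. Both globins fell as well, Hba-a1 by 2.54 (adjusted p = 0.0188) and Hbb-bt by 2.31 (adjusted p = 0.0257), and their part in the lower Klf1 and Slc4a1 levels was not tested. In the knockout samples all 6 spermatid markers fell, with sums of 0.413 and 0.519 against 432 and 685, while the leukocyte and platelet markers summed to 160 and 259 against 28.6 and 59. Over all genes the median difference went from 0.071 to 0.639 with median scaling. Each genotype had a slide of its own here, and the effects of both cannot be told apart.

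Vehicle cultures against sorted WT cells differed in 4 of the 6 genes, all lower, against 74.8% of all genes tested and 42.8% called lower. Higher calls made up 42.8% of the calls, and 66.1% with median scaling. Hemgn was at least 47.8-fold lower (adjusted p = 2.27e-06), Alas1 fell by 3.51 (SE 0.28, adjusted p = 3.04e-05) and Klf1 fell by 2.63 (SE 0.19, adjusted p = 1.93e-05). With normexp the differences were -2.64 for Hemgn (adjusted p = 0.00146), below that bound, and -1.32 for Klf1 (adjusted p = 0.00487). Slc4a1 differed by -0.83 (SE 0.23, adjusted p = 0.0147), and its direction turned to 0.52 with quantile normalization and 0.09 with median scaling, while it was -0.05 with normexp. Over all genes the median went from -0.212 to 0.712 with median scaling. Alas2 and Epor differed by -0.75 (SE 0.8, adjusted p = 0.42) and -1.47 (SE 1.24, adjusted p = 0.313), and with median scaling Alas2 turned to 0.17 and Epor was -0.55. Alas2 passed with only the arrays compared, and Epor passed under at least 1 alternative. Gata1 fell by 1.78 (SE 0.2, adjusted p = 0.000161). The globins, measured in the sorted cells, were not well above background in culture. Spermatid markers summed to 432 and 685 in sorted WT cells against 0.533 and 0.58 in vehicle cultures. Leydig markers summed to 1200 and 1250 against 9.56 and 9.9, and endothelial markers to 26.6 and 38.7 against 1.24 in both cultures. Sertoli and spermatogonia markers had higher sums in culture. The part of these cells in the differences of the 6 genes and Gata1 was not tested. Culture, slide and scan day cannot be told apart here.

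RA raised Gata1 in the cultured cells, and none of the 5 erythroid-type genes tested passed in the main fit. Gata1 went from -2.32 and -2.32 to 0.88 and 0.78, a rise of 3.15 (SE 0.19, adjusted p = 0.000362, limma). Alas2 differed by -0.36 (SE 0.79, adjusted p = 0.909, 95% interval -2.24 to 1.53), Alas1 by 0.37 (SE 0.27, adjusted p = 0.588), Epor by 0.16 (SE 1.23, adjusted p = 0.983), Klf1 by 0.15 (SE 0.19, adjusted p = 0.792) and Slc4a1 by 0.11 (SE 0.23, adjusted p = 0.898). With normexp the last 3 turned, to -0.22, -0.39 and -0.43. None of the 5 had an unadjusted p under 0.05, against 3586 of all genes, and 5.46% of genes passed after adjustment. When only the 4 culture arrays were fitted, Alas2 passed at -0.36 (adjusted p = 0.0152), in a fit with 7193 genes called in place of 1096. Alas1 passed under at least 1 alternative in the other direction, with values of 0.32 to 0.45 over 17 alternatives. The spread for Alas2 and Epor in the model of 10 arrays includes the split N3KO pair. Hemgn was not well above background in either culture and was not tested.

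**Figure D4:**
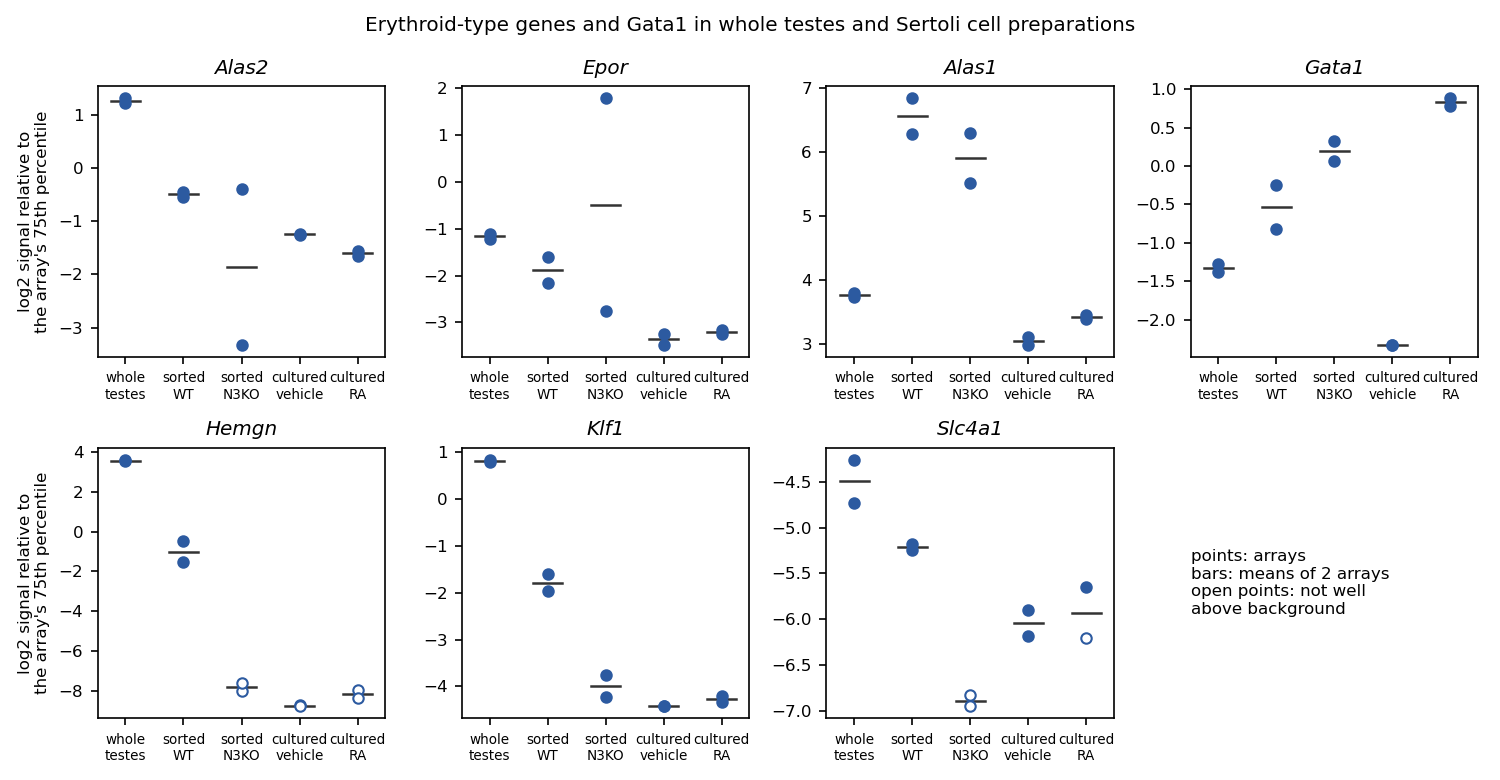
Log2 signal relative to the array's 75th percentile for the 6 erythroid-type genes and Gata1 in whole testes, sorted wild-type and N3KO Sertoli cells and cultured Sertoli cells with vehicle or RA (points are arrays, bars are means of 2 arrays, open points were not well above background). Gata1 rose by 3.15 with RA, and the N3KO pair split for Alas2 and Epor.

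Red cell markers bear on whether blood in the samples could carry these signals, and of 17 defining markers 12 were measured. The alpha globin gene Hba-a1 and the beta globin gene Hbb-bt were highest in whole testes and sorted WT cells, with means of 0.48 and 0.99 for Hba-a1 and 1.64 and 1.75 for Hbb-bt. On the 24 tubule arrays Hba-a1 ran from -4.41 to -1.95 and Hbb-bt from -4.31 to -1.5. From IV-VI to VII-VIII, where Alas2 was at least 76.1-fold lower in untreated tubules and differed by -5.65 and -4.81 in Venus and dnRARa tubules, Hba-a1 differed by 0.32, -0.25 and -0.14 (SE 0.51, 0.52 and 0.51) and Hbb-bt by 0.21, -0.69 and -0.14 (SE 0.73, 0.74 and 0.74) in untreated, Venus and dnRARa tubules, and neither globin passed in any arm (limma, adjusted p of 0.541 to 0.916). The signs of the globin and Alas2 differences were thus opposite in untreated tubules and the same in both virus arms, with far smaller globin values. In dnRARa against Venus tubules Hba-a1 differed by -0.39 (SE 0.52, adjusted p = 0.77) and Hbb-bt by -0.75 (SE 0.74, adjusted p = 0.674) at IX-XII, where Alas2 differed by 1.83, and by 0.07 (SE 0.51, adjusted p = 0.964) and -0.43 (SE 0.74, adjusted p = 0.823) at IV-VI, where Alas2 differed by -1.17. Of 8 red cell markers tested at IV-VI 1 passed, against 3.35% of all genes tested. It was Cldn13, which fell by 0.81 (limma, adjusted p = 0.0378), the direction of Alas2. The part of Cldn13 in the Alas2 difference was not tested. In the cultures both globins were not well above background on all 4 arrays, while Alas2 stood between -1.65 and -1.23 and was well above background. How much blood RNA contributed to the Alas2 signal was not tested, in the cultures or in the tubules.

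The other defining markers ran in several ways. Rhag, which encodes the Rh-associated glycoprotein of red cells, was not well above background on any of the 34 arrays. Epb42, a membrane skeleton gene, was above on 1 array, and Ermap on the 4 sorted Sertoli arrays and on no tubule array. Rhd was above on all 34 arrays, Cldn13 on 24 tubule arrays and Kel on 19. These 3 were highest at VII-VIII in each arm, and from IV-VI to VII-VIII they rose by 2.54, 2.35 and 1.92 in untreated tubules (adjusted p = 6.09e-07, 6.66e-07 and 0.000866). The summed signal of the 12 markers, in units of the array's 75th percentile, was 5.19 and 6.56 in testes, 5.6 and 7.74 in sorted WT cells, 3.21 and 0.811 in N3KO cells, 0.133 to 0.18 in cultures and 1.21 to 3.01 in tubules. Within tubules the sum was highest at VII-VIII, with means of 2.96 in untreated, 2.45 in Venus and 2.58 in dnRARa tubules, where Alas2 was lowest.

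**Figure D5:**
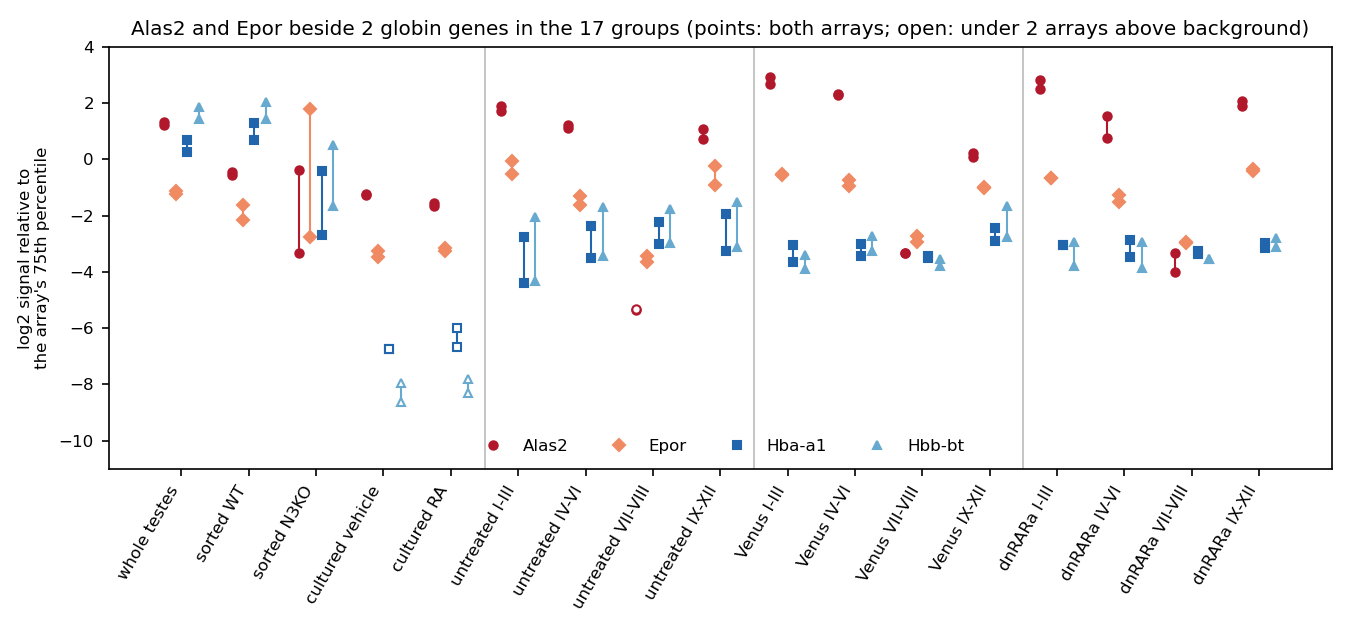
Both arrays of Alas2, Epor and the globin genes Hba-a1 and Hbb-bt in the 17 groups, as log2 signal relative to the array's 75th percentile (open points mark groups with under 2 arrays well above background). Both globins stayed between -4.41 and -1.5 on the tubule arrays while Alas2 ran from -5.37 to 2.92, and in the cultures the globins were not well above background while Alas2 was.

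Leukocyte and platelet markers summed to 2.08 to 3.05 in untreated, 4.88 to 10.6 in Venus and 4.59 to 8.32 in dnRARa tubules, so they separated injected from untreated tubules in the same samples in which Klf1 differed. Their part in the Klf1 difference was not tested.

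The other enzymes of heme synthesis did not share the depth of the Alas2 stage swing. Of 7 such enzymes tested, 2 rose and 1 fell from IV-VI to VII-VIII in untreated tubules, and 1 rose and 2 fell in Venus and in dnRARa tubules, so 3 of 7 passed in each arm, against 42.4%, 33% and 31.4% of all genes. Cpox, which encodes coproporphyrinogen oxidase, fell in all 3 arms, by 0.95 (adjusted p = 2.6e-05), 0.87 (adjusted p = 9.33e-05) and 0.91 (adjusted p = 6.95e-05). Uros, the gene of uroporphyrinogen III synthase, rose by 0.57, 0.44 and 0.45 (adjusted p = 0.00173, 0.0136 and 0.0134). The median difference of the 7 was -0.16, -0.23 and -0.25, against 0.026, -0.062 and 0.014 over all genes tested. In sorted WT Sertoli cells against testes 6 of the 7 rose and 1 fell, where 79.2% of all genes passed, with a median of 2.22 against -0.067 over all genes; Alad rose by 2.61 (adjusted p = 2.95e-06), Urod by 2.22 (adjusted p = 3.87e-06) and Ppox by 2.16 (adjusted p = 2.85e-06). With RA in culture none of the 7 passed after adjustment by limma and 1 had an unadjusted p under 0.05. In dnRARa against Venus tubules at IX-XII Cpox differed by 0.7 (adjusted p = 0.00477), and this value turned to -0.07 under another scaling or background correction.

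Of the erythroid transcription factors tested, 2 rose and 6 fell from IV-VI to VII-VIII in each arm, of 12 in untreated, 13 in Venus and 12 in dnRARa tubules, where 42.4%, 33% and 31.4% of all genes passed. The fetal globin repressor gene Bcl11a rose by 1.04, 1.16 and 0.89 (adjusted p = 2.28e-06, 2.2e-06 and 1.83e-05), and Lmo2, which encodes a bridging partner of Gata1, fell by 1.39, 2.12 and 1.8 (adjusted p = 0.00019, 9.79e-06 and 4.08e-05). The smallest Lmo2 fall in untreated tubules under another scaling or background correction was 0.42. Lmo2 also rose by 2.28 in dnRARa against Venus tubules at IX-XII (adjusted p = 7.16e-05), the stage group in which Alas2 differed by 1.83 and Gata1 by -1.69 and the smallest value for Lmo2 there was 0.59. Among erythropoietin signalling genes Socs1, an inhibitor of cytokine signalling, rose by 1.47, 1.54 and 1.55 (adjusted p = 7.17e-06, 9.01e-06 and 1.01e-05). Jak2, the kinase of the receptor that Epor encodes, rose by 0.59, 0.33 and 0.34 (adjusted p = 0.000806, 0.0428 and 0.0362). The iron exporter gene Slc40a1 was at least 4.32-fold lower in untreated tubules, where VII-VIII was not well above background (adjusted p = 3.02e-05), and fell by 1.66 and 1.36 in the virus arms (adjusted p = 0.00068 and 0.00293), and the metal importer gene Slc39a14 rose by 0.76, 0.89 and 0.52 (adjusted p = 0.000185, 8.35e-05 and 0.00517). The smallest untreated Slc40a1 difference over those settings was -0.07. Among red cell membrane and skeleton genes Tmod1, which caps actin filaments, rose by 3.66, 5.6 and 4.06 (adjusted p = 0.00108, 5.75e-05 and 0.00079).

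With RA in cultured Sertoli cells 2 of 12 erythroid transcription factors rose, where 5.46% of all genes tested passed in either direction. They were Gata1 and the corepressor gene Cbfa2t3, the latter by 2.68 (limma, adjusted p = 0.00189). Stra8, a retinoic acid response gene of germ cells, rose by 3.92 (adjusted p = 1.81e-05). The proton-coupled folate and heme transporter gene Slc46a1 rose by 1.91 (adjusted p = 0.00164) and the transferrin receptor gene Tfr2 by 1.47 (adjusted p = 0.00311). Bach1, which encodes a heme-responsive repressor, fell by 1.52 (adjusted p = 0.0056). None of 13 red cell membrane and skeleton genes passed after adjustment by limma, and 1 had an unadjusted p under 0.05.

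The genes whose tubule profiles were most like that of Alas2 carried no red cell name. Among 10680 genes with a symbol and a range of at least 1 log2 unit over the 12 group means, the highest Pearson r to Alas2 belonged to Csrnp2, Rmnd5b, Hibch and Ccdc113 at 0.992, Fa2h at 0.991, Ube2f at 0.99, Ate1 at 0.988 and Dcaf7 at 0.986. The genes most like Gata1 were Gtf2h2 at 0.955, Olfml2b at 0.954, Tab1 at 0.95, Tyk2 at 0.947 and Ahsg at 0.942. The group means share arms and slides, and a profile with a single low stage gives a high r to any other such profile.

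Untreated tubules against whole testes, averaged over the 4 stage groups, gave -1.64 for Alas2 (SE 0.41), -1.62 for Hemgn (SE 0.64), -0.58 for Alas1 (SE 0.15), -0.65 for Slc4a1 (SE 0.22), -0.35 for Klf1 (SE 0.16) and -0.29 for Epor (SE 0.6), with no test. The Epor value turned to 0.01 with median scaling. The Slc4a1 value turned to 0.20 and the Alas2 value moved to -0.68 with normexp background correction. Gata1 fell by 0.52 (SE 0.16, adjusted p = 0.00984, with 52.4% of genes passing), and did not pass with median scaling (-0.22, adjusted p = 0.309), with normexp (-0.27, adjusted p = 0.171) or without the first testis sample (-0.47, adjusted p = 0.104). Over all genes the median went from -0.214 to 0.085 with median scaling. Whole testes had Leydig markers summing to 174 and 178 against 9.72 to 27.5 in untreated tubules, and both globins were higher there than on any tubule array. Testes and untreated tubules lay on different slides and scan days, so preparation, slide and day cannot be told apart here.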

How the data were processed

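RNA of 34 samples (17 groups of 2) had been labelled with Cy3 and hybridised to 1-colour Agilent arrays, and the signal intensity of each spot was read with Feature Extraction 9.5.3.1, per the file headers, which subtracted the local background and detrended each array. The deposited intensity values were not scaled between arrays, and the deposited series table held the same values. The genome build is not given in the sources used here. From the intensities, log2 values relative to the 75th percentile of each array were computed here; control and outlier spots were left out, spots of 1 probe averaged and the probe with the highest mean signal used per gene. Of 41174 probes 22951 were named by accession and 67 by symbol through RefSeq, and 18156 kept the name in the file.

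The fits used limma 3.58.1 (R 4.3.3), with a mean for each group: the 10 testis and Sertoli arrays in 1 model, the 24 tubule arrays in another, and all arrays for tubules against testes. Genes entered a test where some group compared had both of its arrays well above background. P-values were adjusted over all genes within a comparison (Benjamini-Hochberg, threshold 0.05). Bounds (at least N-fold) set the mean of the bright group against the lowest signal well above background on the dim arrays. The models were tested on simulated data. The members and gene lists were chosen with earlier results of these data known. The text names the 6 genes and Gata1 in every comparison, up to 3 genes of a list with the smallest adjusted p among those that passed, red cell markers by their level, and the 8 and 5 genes most like Alas2 and Gata1. The stage steps within the virus arms were added after the slides were seen. Replicate numbers did not pair the samples (r of replicate differences between arms -0.06 to 0.1 over 13398 genes). Alternatives were other scalings, background corrections, filters, models, blocks and single arrays left out. The number of arrays limits the precision. Results for some red cell markers are not reported here.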

Additional observations from a re-analysis of the deposited data

Results flagged for a closer look

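The difference between dnRARa and Venus tubules had opposite signs in different stage groups for Alas2, Epor, Alas1 and Klf1. In the stage groups named, both arrays of 1 arm lay above or below both arrays of the other. With 2 arrays per arm such a separation is easily reached without a real difference, and its share over all genes was not counted. Alas2 differed by 1.83 in IX-XII and by -1.17 in IV-VI. Epor differed by 0.61 in IX-XII and by -0.55 in IV-VI. Alas1 differed by 0.15 in IX-XII and by -0.45 in IV-VI (SE 0.14 each), so the first lay near 1 SE from 0. Klf1 differed by 0.17 in VII-VIII and by -0.57 in IV-VI (SE 0.2 each), and the first lay within 1 SE of 0. These differences between stages were not tested, because the genes were chosen with their tubule values known. For Gata1 the difference between late and early stages was tested and gave -1.11 (limma, adjusted p = 0.0195).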

How the results depend on the processing

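Alas2 in dnRARa against Venus tubules at IX-XII ranged from 1.68 to 1.98 over 19 settings, and Gata1 there passed in every one run (adjusted p of 3.11e-05 to 0.0314). Of 149 differences of the 6 genes and Gata1, 38 changed sign under at least 1 alternative, and 32 of these had not passed or lay within 2 SE of 0, among them Alas2 in N3KO against WT cells (0.10 without N3KO replicate 2) and in vehicle cultures against WT cells (0.17 with median scaling), and, with normexp, Klf1 and Slc4a1 with RA (-0.39 and -0.43) and in dnRARa against Venus at IX-XII (-0.52 and -0.45). Of the other 6, Epor in N3KO against WT Sertoli cells had not passed in the main fit (1.4, SE 1.24, limma, adjusted p = 0.383). It is counted here because of the fit without N3KO replicate 2, which leaves 1 N3KO array. The value there was -0.87, against 3.67 without N3KO replicate 1. The rest had passed or lay over 2 SE from 0. Slc4a1 in vehicle cultures against WT cells turned with quantile normalization (0.52) and array median scaling (0.09). With normexp background correction the others were Klf1 in Venus IX-XII against VII-VIII (0.18), Slc4a1 in Venus against untreated tubules (-0.12), Klf1 in the arm by stage contrast (-0.02) and Slc4a1 in tubules against testes (0.20). The causes were not tested.

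Alas2 in WT Sertoli cells against testes passed at -1.89 with median scaling, -1.59 with normexp, and -1.76 in 1 model of all arrays or with only the arrays compared. With only the arrays compared Alas2 also passed in vehicle cultures against WT cells (-0.75) and with RA (-0.36), and in 1 model of all arrays it passed in N3KO against WT cells (-1.36). Alas1 passed with RA under at least 1 alternative (0.32 to 0.45 over all of them). Epor did so in WT cells against testes (-1 to -0.45) and in vehicle cultures against WT cells (-1.75 to -0.55). With only the arrays compared Gata1 did not pass in N3KO against WT cells (0.73), untreated I-III against IX-XII (-0.59) and dnRARa against Venus at VII-VIII (-0.96). Gata1 in untreated I-III against IX-XII (-0.59) did not pass without the detection filter either. With normexp Gata1 passed in untreated IV-VI against I-III (0.71), and did not pass in dnRARa against Venus at VII-VIII (-0.88) or tubules against testes (-0.27; -0.22 with median scaling).

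With normexp Alas2 moved to -3.00 (untreated VII-VIII against IV-VI), 2.77 (untreated IX-XII against VII-VIII), -0.08 (dnRARa against Venus at VII-VIII), 0.14 (Venus against untreated) and -0.68 (tubules against testes). Within scan days 2 and 3, Alas2 in dnRARa against Venus was 0.16 and -0.43 at I-III, -0.78 and -1.55 at IV-VI, -0.01 and -0.65 at VII-VIII, and 0.34 and -0.24 over stages. Gata1 was 0.40 and -0.07 at IV-VI, -1.90 and -1.48 at IX-XII, and -1.36 and -0.86 in the arm by stage contrast.

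Counts of genes called moved by over 1.5 times as follows. N3KO against WT cells went from 10503 to 4201 with only the arrays compared. RA went from 1096 to 559 (normexp), 707 (no filter) and 7193 (only the arrays compared). Untreated VII-VIII against IV-VI went from 8142 to 3881 (normexp), and IX-XII against VII-VIII from 9419 to 4400 (only the arrays compared). In dnRARa against Venus, IV-VI went from 749 to 146 (normexp), 282 (no filter) and 1 (only the arrays compared), VII-VIII from 355 to 59, 0 (only the arrays compared, where 2913 genes of the full model had an unadjusted p under 0.05 in limma) and 552 (replicate block), IX-XII from 1078 to 258 (normexp) and 710 (no filter), and all stages from 2952 to 729 (normexp) and 4638 (only the arrays compared). The arm by stage contrast went from 240 to 36 (normexp), 80 (no filter), 383 (above background on every array), 970 (only the arrays compared), 432 (intensity trend) and 386 (replicate block). Venus against untreated went from 15866 to 23803 (no filter), and tubules against testes from 11353 to 7110 (normexp).

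Leaving out 1 array at a time gave, for Alas2, -2.83 to 0.10 in N3KO against WT cells, and in dnRARa against Venus -1.54 to -0.79 at IV-VI and -0.66 to 0.00 at VII-VIII. For Gata1 it gave 0.44 to 1.02 in N3KO against WT cells, -0.85 to -0.34 in untreated I-III against IX-XII, -1.04 to -0.88 in dnRARa against Venus at VII-VIII, -1.23 to -0.99 in the arm by stage contrast and -0.58 to -0.46 in tubules against testes. The genes called ran from 361 to 380 for RA, 42 to 737, 91 to 525 and 321 to 626 for dnRARa against Venus at IV-VI, VII-VIII and IX-XII, 36 to 320 for the arm by stage contrast and 7382 to 12213 for tubules against testes. The replicate block changed no call of the 6 genes or Gata1. Slide could not be fitted as a block where each slide held 1 group or arm. Signals near background, such as Alas2 at VII-VIII and Slc4a1, moved most with the background correction.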
